A study of Rattus norvegicus with 16 samples.

Results

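The 8 genes described here carry the insulin signal and the use of glucose. They are the receptors Insr and Igf1r, the adaptor Irs1, the kinases Akt1 and Akt2, the glucose transporters Slc2a1 and Slc2a4 and the enzyme Ldha. They were chosen by gene identifier and chromosome out of 26560 genes in the mRNA count tables, and the chromosome agreed for all 8. All 8 averaged 1 count or more per mRNA library and were among the 19446 genes tested.

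Insulin binds Insr and the insulin-like growth factors bind Igf1r. Both are receptor tyrosine kinases that phosphorylate adaptors such as Irs1, and the signal passes through phosphoinositide 3-kinase to the Akt kinases. In muscle and fat the signal moves the transporter encoded by Slc2a4 (GLUT4) to the cell surface, whereas the transporter encoded by Slc2a1 (GLUT1) brings in glucose in most cells without insulin. Ldha encodes a subunit of lactate dehydrogenase, which interconverts pyruvate and lactate, and germ cells of the testis are known for using lactate supplied by Sertoli cells.

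Messenger RNA was sequenced from testicular germ cells (GCs) of male Sprague Dawley GCS-eGFP rats, sorted by flow cytometry on their germ cell eGFP. The rats were fed a high fat diet (HFD, 40% of calories from fat per the labels, where the study's methods state a higher fat content) or a control diet (CD, 10%), with 4 libraries per diet, and were 19 weeks old. Rats of both diets carried the transgene and went through the same sort, and the gate was set on eGFP alone, so that germ cell stages are not separated. The question was whether the diet eaten by these rats themselves changed the level of these transcripts in their GCs. Library totals ranged from 39042726 to 62038805 counts on the HFD and from 38633043 to 53742726 on the CD, and the 8 genes together took 0.0916% of all counts. CD replicate 1 stood apart in composition: the 100 most abundant genes took 28.4% of its counts against 21.9% to 26.1% in the other libraries, and its TMM scaling factor was 0.856 against 0.944 to 1.09. CD replicate 2 came next on both measures, at 26.1% and 0.944. Fewer cells of a stage and less RNA per cell cannot be told apart in these bulk samples. Germ and somatic cell markers were not analysed here, because the gene identifiers could be paired with symbols only for the 8 genes.

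The 8 genes covered 5 orders of magnitude, and their order was the same on both diets. Levels are given as RPKM, which is TMM-scaled counts per 1000000 (CPM) divided by the kilobases of annotated exon. Ldha was the highest with 515 ± 10.5 RPKM (SD, n = 8), above 99.3% of the genes tested, and it ranked 144 among them. Akt2 followed with 35.1 ± 2.27 RPKM, above 85.5% of genes. Slc2a1 had 4.25 ± 0.320 RPKM and Akt1 2.17 ± 0.317 RPKM, both above the median gene at 1.56 RPKM. Igf1r had 0.853 ± 0.257 RPKM and Insr 0.127 ± 0.050 RPKM. Slc2a4 had 0.0246 ± 0.0131 RPKM and Irs1 0.00514 ± 0.00665 RPKM, which put Irs1 above only 0.0669% of the genes tested. Irs1 averaged 1.25 counts, just above the filter of 1 count, and genes below the filter are not in this share. The ranges of neighbours in this order did not overlap down to Slc2a4, with all 8 libraries in the same order at each step. The lowest pair, Slc2a4 and Irs1, overlapped and kept the order in 7 of 8 libraries.

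**Figure D1:**
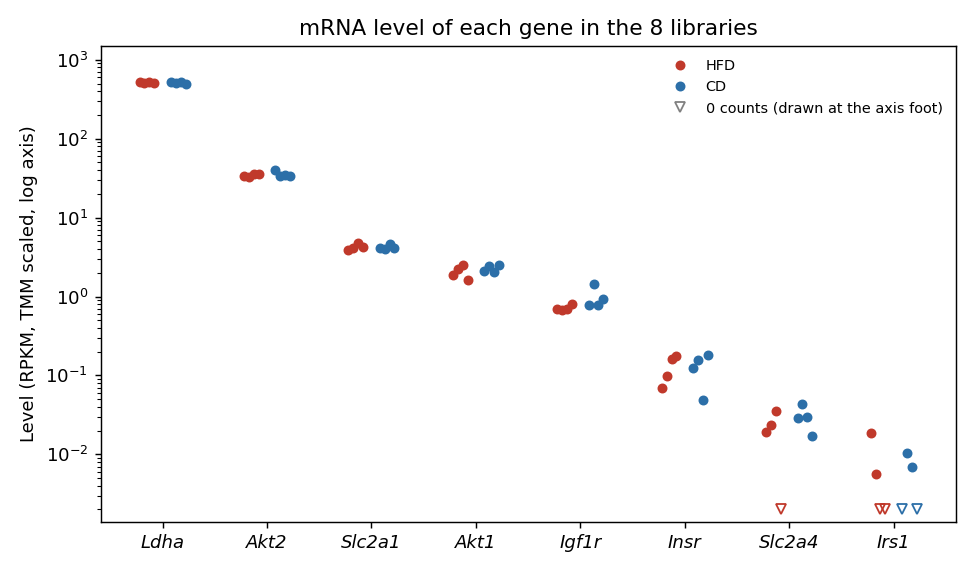
Level of each gene in RPKM on a log axis, with 1 point per library, HFD in red and CD in blue, and open triangles at the foot of the axis for libraries with 0 counts. The genes run from Ldha near 515 RPKM down to Irs1, and the ranges of the 2 diets overlap at every gene, for Igf1r only through HFD replicate 4.

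Promoter sequence was available for 7 of the 8 genes (all but Slc2a4) from RefSeq on build GRCr8, a later build than the rn5 of the counts. The sequences of the highest and the lowest gene are shown because these genes bound the range of levels. Each is the 250 bases before the annotated start, 5′ to 3′ on the gene's strand, with capitals at matches on either strand to the TATA box (TATAAA), the GC box (GGGCGG), the core of the hypoxia response element (ACGTG) and the cyclic AMP response element (TGACGTCA). The Ldha window is chr1:106507842-106508091 on the plus strand and the Irs1 window is chr9:91053960-91054209 on the minus strand.
Ldha: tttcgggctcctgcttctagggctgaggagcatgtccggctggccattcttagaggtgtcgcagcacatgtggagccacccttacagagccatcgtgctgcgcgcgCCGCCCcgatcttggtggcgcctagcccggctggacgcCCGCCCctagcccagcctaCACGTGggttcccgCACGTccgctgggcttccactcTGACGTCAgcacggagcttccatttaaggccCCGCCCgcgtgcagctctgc
Irs1: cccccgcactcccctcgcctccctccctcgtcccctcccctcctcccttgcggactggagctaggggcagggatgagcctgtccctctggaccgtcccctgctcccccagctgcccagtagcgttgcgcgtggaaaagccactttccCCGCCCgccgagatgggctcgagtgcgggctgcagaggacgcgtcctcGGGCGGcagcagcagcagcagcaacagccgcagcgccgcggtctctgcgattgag
The Ldha window held 3 GC boxes, 1 cyclic AMP response element and 3 ACGTG matches, of which a pair overlap in a palindrome. Of all 33469 windows of this length, 30.5% held GGGCGG, 16.6% held ACGTG, 12.9% held TATAAA and 1.59% held TGACGTCA. Ldha was the only gene of the 7 with TGACGTCA, and Akt2 the only one with TATAAA. Akt2 spans 38417 bases in the annotation of the counts and 56716 in RefSeq, so its window may not lie at the start of the gene as counted. GC boxes were found in 4 of the 7 and ACGTG in 3 of the 7. The Irs1 window held 2 GC boxes and no match to the other motifs. GC content was 66.4% for Ldha, 70.8% for Irs1 and 79.6% for Igf1r, the highest of the 7, against a median of 51.2% over all windows. A match describes the letters of the window and is not a measured binding site.

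Insr (ENSRNOG00000029986, rn5 chromosome 12, 3852577 to 3989125, minus strand, 22 exon intervals) encodes the insulin receptor. Its counts in HFD replicates 1 to 4 were 15, 36, 38 and 43, and in CD replicates 1 to 4 they were 28, 31, 14 and 45. On the CPM scale these were 0.368, 0.536, 0.862 and 0.942 CPM on the HFD and 0.678, 0.850, 0.261 and 0.973 CPM on the CD. The lowest value was that of CD replicate 3 and the highest that of CD replicate 4, so the HFD libraries lay wholly inside the CD range. HFD libraries averaged 0.677 ± 0.270 CPM and CD libraries 0.691 ± 0.311 CPM (SD, n = 4 each), a fold change of 0.989 with a 95% interval of 0.530 to 1.84. These libraries do not settle the direction or size of a difference within that interval.

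Igf1r (ENSRNOG00000014187, rn5 chromosome 1, 129985804 to 130265820, plus strand, 21 exon intervals) encodes the receptor of the insulin-like growth factors. It showed the smallest p of the 8 genes. Its levels were 3.27, 3.19, 3.24 and 3.81 CPM on the HFD and 3.68, 6.83, 3.63 and 4.35 CPM on the CD. Of the HFD libraries, only replicate 4 reached into the CD range, and CD replicate 2, at 6.83 CPM, lay far above the other 7. HFD libraries averaged 3.38 ± 0.290 CPM and CD libraries 4.62 ± 1.51 CPM, a fold change of 0.733 (95% interval 0.541 to 0.995). The log2 fold change was -0.45 ± 0.20 (SE), with an unadjusted p of 0.0467 and an adjusted p of 0.83 by edgeR, so Igf1r did not pass the test across genes. An exact two-sided permutation test of the CPM gave p = 0.0857. Without CD replicate 2 the log2 fold change was -0.20, with an unadjusted edgeR p of 0.192.

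Irs1 (ENSRNOG00000014597, rn5 chromosome 9, 87782499 to 87835248, minus strand, 2 exon intervals) encodes the adaptor next to both receptors. It was counted 4, 2, 0 and 0 times on the HFD and 0, 2, 2 and 0 times on the CD. Only 4 of 8 libraries held a count, and a count of 0 allows up to 3 counts, or 0.0649 to 0.0727 CPM in the 4 libraries at 0. The summed counts were 6 on the HFD and 4 on the CD. Their scaled ratio was 1.35 with an exact counting interval of 0.320 to 6.50, so the direction of a diet difference is unresolved at this depth. Per kilobase, Insr was 24.8-fold higher than Irs1 over the summed libraries (counting interval 13.3 to 52.3).

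Both Akt kinases pass the signal on by phosphorylating many targets, and Akt2 is the form tied most closely to insulin action on glucose. Akt1 (ENSRNOG00000028629, rn5 chromosome 6, 146226687 to 146243773, minus strand, 13 exon intervals) had 2.97, 3.59, 3.99 and 2.63 CPM on the HFD and 3.34, 3.92, 3.33 and 4.04 CPM on the CD. The lowest libraries were HFD replicates 4 and 1, and HFD replicates 2 and 3 lay inside the CD range. The log2 fold change was -0.15 ± 0.16 (SE), a fold change of 0.902 (95% interval 0.707 to 1.152).

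Akt2 (ENSRNOG00000018677, rn5 chromosome 1, 85627946 to 85666362, plus strand, 14 exon intervals) had 66.7, 65.6, 71.0 and 69.9 CPM on the HFD and 79.9, 67.7, 68.4 and 67.6 CPM on the CD. All values but that of CD replicate 1 lay between 65.6 and 71.0 CPM. That library has the low scaling factor given above, and scaled by its total count alone it had 68.4 CPM, inside the range of 63.9 to 73.6 CPM of the other libraries. The part of the scaling in its value was not tested. The fold change of Akt2 was 0.963 (95% interval 0.855 to 1.09).

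Slc2a1 (ENSRNOG00000007284, rn5 chromosome 5, 141964114 to 141992634, plus strand, 10 exon intervals) had 10.1, 10.7, 12.4 and 10.8 CPM on the HFD and 10.5, 10.4, 12.04 and 10.6 CPM on the CD. One library of each diet, replicate 3 in both, exceeded 12 CPM and the other 6 lay between 10.1 and 10.8 CPM. The means of 10.99 ± 0.997 CPM and 10.9 ± 0.766 CPM gave a fold change of 1.01 (95% interval 0.863 to 1.18).

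Slc2a4 (ENSRNOG00000017226, rn5 chromosome 10, 56298110 to 56303651, minus strand, 11 exon intervals), the insulin-responsive transporter of muscle and fat, was counted 2, 4, 4 and 0 times on the HFD and 3, 4, 4 and 2 times on the CD. No library held more than 4 counts. The sums of 10 and 13 counts gave a scaled ratio of 0.692 with an exact counting interval of 0.272 to 1.71, which leaves the direction unresolved. These intervals cover counting error only.

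Ldha (ENSRNOG00000013009, rn5 chromosome 1, 103975207 to 103984632, plus strand, 8 exon intervals) took 90.3% of the counts of the 8 genes. Its levels were 828, 808, 844 and 823 CPM on the HFD and 830, 820, 841 and 793 CPM on the CD. All 8 values lay between 793 and 844 CPM, and the HFD values lay within the CD range except for HFD replicate 3 just above it. HFD libraries averaged 826 ± 14.9 CPM and CD libraries 821 ± 20.4 CPM, a fold change of 1.01 (95% interval 0.909 to 1.11). Near-identical processed copies of Ldha occur in mammalian genomes, so that reads shared with such copies may be missing from its counts. No exon of the 8 genes shared bases with an exon of another gene on either strand.

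**Figure D2:**
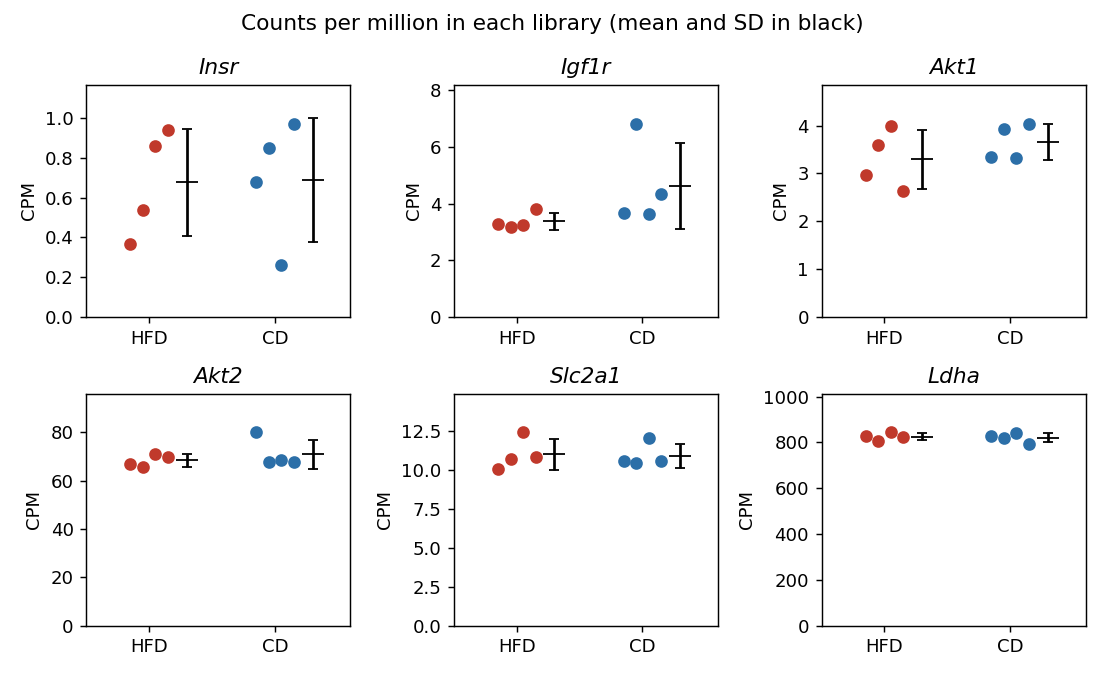
CPM of the 6 genes averaging more than 30 counts, with 1 point per library, HFD in red, CD in blue, and the mean and SD of 4 libraries in black; each axis starts at 0. CD replicate 2 at 6.83 CPM stands out for Igf1r and CD replicate 1 at 79.9 CPM for Akt2, and the Ldha points lie between 793 and 844 CPM.

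None of the 8 genes passed an adjusted p under 0.05 between the diets in the edgeR fit, and the background was 0% (0 of 19446 genes). DESeq2 called 6 genes with shrunken fold changes and 7 without, none of them among the 8. At an unadjusted p under 0.05, 1 of the 8 was counted, Igf1r, against 3.73% of all genes (725 of 19446), and 1 gene is too few to set against that share. That number of genes depended on single libraries: it was 3379 (17.5%) without CD replicate 4, and 452, 449, 412 and 462 without HFD replicates 1 and 2 and CD replicates 1 and 2. The HFD and CD libraries overlapped for all 8, while they did not overlap for 2.12% of all genes. The adjusted p ranged from 0.83 for Igf1r to 0.995 for Insr. Log2 fold changes were above 0 in 3 of the 8 genes and their median was -0.04, beside a median of -0.01 and 48.8% above 0 over all genes tested. The 95% interval stayed within 1 log2 unit of 0 for the 6 genes other than Irs1 and Slc2a4. The narrowest interval was that of Ldha, -0.14 to 0.15 on the log2 scale, followed by Akt2 at -0.23 to 0.12 and Slc2a1 at -0.21 to 0.24.

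**Figure D3:**
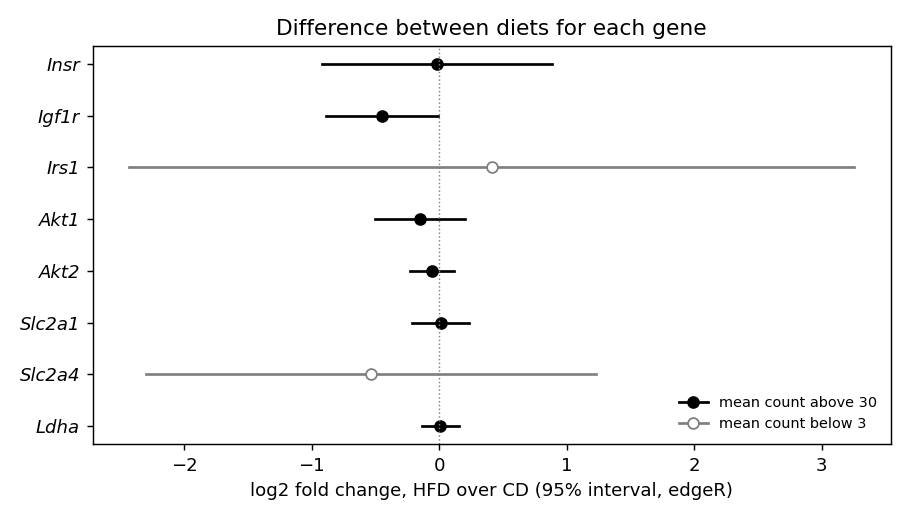
Log2 fold change of HFD over CD for each gene with its 95% interval from the edgeR fit, in black for the genes averaging more than 30 counts and in grey with open points for Irs1 and Slc2a4, averaging fewer than 3. The intervals of Ldha, Akt2 and Slc2a1 are the narrowest and that of Igf1r ends just below 0.

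Ratios within a library compare related genes without any scaling between libraries. Igf1r was 7.03-fold higher per kilobase than Insr on the geometric mean of the 8 libraries. The log2 ratio of Insr to Igf1r averaged -2.60 ± 0.557 in HFD libraries and -3.03 ± 0.710 in CD libraries, with the HFD values from -3.31 to -2.10 and the CD values from -3.96 to -2.35. These ranges overlapped, and the difference of 0.44 gave an exact permutation p of 0.371 (adjusted over the 3 ratios, 0.557). Akt2 was 16.3-fold higher than Akt1, with log2 ratios of Akt1 to Akt2 between -4.42 and -3.84 on the HFD and between -4.27 and -3.76 on the CD. The diets differed by -0.11 (exact permutation p = 0.571, adjusted 0.571). Slc2a1 exceeded Slc2a4 by 177-fold per kilobase over the summed libraries (exact counting interval 118 to 279). Its log2 ratio averaged 7.87 ± 1.39 in HFD libraries and 7.02 ± 0.503 in CD libraries, with exact permutation p = 0.343 (adjusted 0.557). The difference of 0.85 was 0.17 without HFD replicate 4. HFD replicate 4, where Slc2a4 was at 0 and the ratio rests on the 0.5 count added to each gene, had 9.93 against 6.91 to 7.34 in the other HFD libraries. The smallest two-sided exact p that 4 against 4 libraries allow is 0.0286. Adjusted over the 3 ratios, 1 ratio alone at that p would stay above 0.05.

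**Figure D4:**
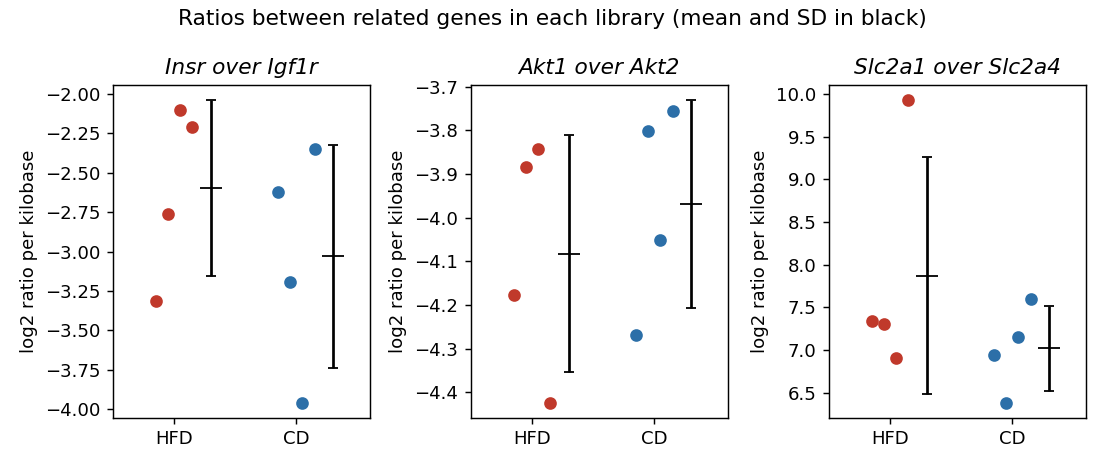
Log2 ratio per kilobase of Insr to Igf1r, Akt1 to Akt2 and Slc2a1 to Slc2a4, with 1 point per library, HFD in red, CD in blue, and the mean and SD of 4 libraries in black; the axes do not start at 0. The diets overlap in each panel and 1 HFD library stands at 9.93 in the third.

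The genes varied between rats of 1 diet to very different degrees. The coefficient of variation (CV) within diets was 2.17% for Ldha, where counting error alone would give 0.509%, and only 0.144% of all genes had a smaller one. Among the 5308 genes that averaged 1000 counts or more, whose median CV was 8.70%, 0.490% were below Ldha. Ldha had been picked by the study as a reference gene for quantitative PCR among the most stable genes of these same libraries, so its low CV is not independent evidence of stability. With CPM from total counts in place of TMM, the CV of Ldha was 6.15%, with 710 CPM in CD replicate 1 against 774 to 874 CPM elsewhere, and 3.53% of all genes and 11.6% of the genes that averaged 1000 counts or more were lower. Akt2 moved the other way, from 6.63% with TMM to 4.06% with total counts. Slc2a1 had 8.13%, Akt1 14.6%, Igf1r 27.1% and Insr 42.6%. Counting alone would give 4.41%, 7.83%, 7.40% and 17.9% for these 4, and the libraries come from different rats. The Igf1r value pools unlike diets, with an SD of 0.290 CPM on the HFD and 1.51 CPM on the CD. On the CD, replicate 2 lay far above the other libraries at 6.83 CPM. For Slc2a4 the CV of 52.6% lay below the 59.0% of counting error, and for Irs1 it was 139% against 89.4%.

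**Figure D5:**
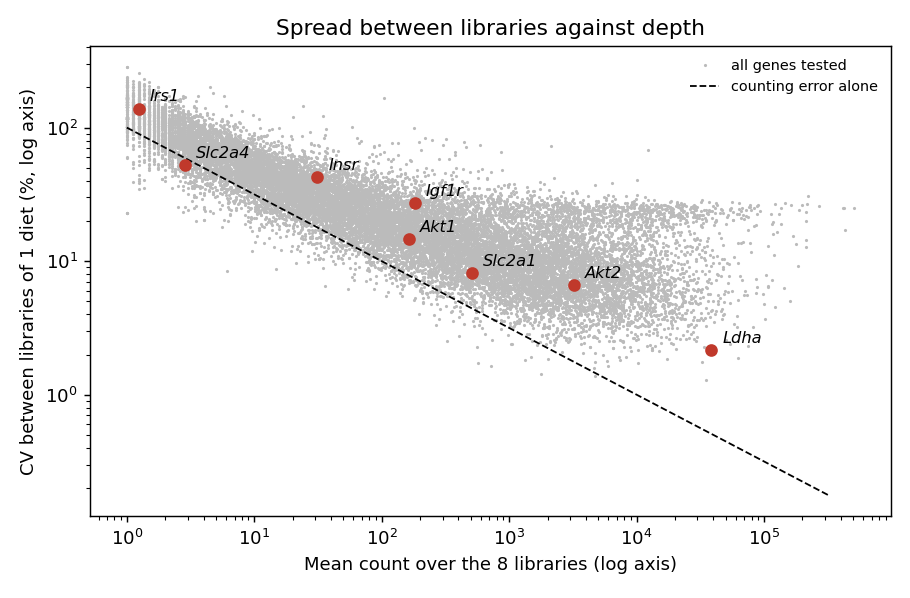
CV between libraries of 1 diet against the mean count over the 8 libraries, both on log axes, with all genes tested in grey, the 8 genes in red and the CV from counting error alone as a dashed line. Ldha at 2.17% lies at the lower edge of the genes of its depth, and Insr and Igf1r lie well above the dashed line.

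Correlations between the 8 genes across rats were of either sign. Over the 15 pairs of the 6 genes other than Irs1 and Slc2a4, Pearson's r of the log2 CPM over 8 libraries had a median of 0.0869 and ran from -0.404 (Insr with Ldha) to 0.607 (Slc2a1 with Ldha). The r was above 0 in 8 of the 15 pairs. Slc2a1 and Ldha had a Spearman's rho of 0.429, and r was -0.344 without the 2 libraries farthest from the median of Slc2a1, so the relation rests on those libraries. Akt1 with Akt2 had r = -0.0912 and Insr with Igf1r r = 0.397. These are descriptions over libraries that share their depth, scaling and cell makeup. Among 10289 other genes that averaged 100 counts or more, the profile most like that of Ldha over the 8 libraries was ENSRNOG00000001269 on chromosome 12 (r = 0.980) and the one most like that of Akt2 was ENSRNOG00000004196 on chromosome 6 (r = 0.972). Both were picked for the size of r, so the values carry no test.

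Small RNA of the same kind of cells offered 1 further readout over these genes. Of 50830 piRNA entries placed at 1 position, only 1 lay inside the span of the 8 genes, in an intron of Akt2 (rn5 chromosome 1, 85650686 to 85650714). It had 0 counts in all 8 small RNA libraries, whose piRNA totals ranged from 891575 to 1240080 counts, and a count of 0 allows up to 3 counts per library. The entry was counted only for reads opposite to its annotated plus strand, so that bound does not cover reads of the plus strand. All 58165 piRNA entries listed were annotated on the plus strand. The share of entries at 0 was not computed.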

How the data were processed

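The values deposited for each library are raw read counts, 1 for each gene or piRNA entry. According to the study's methods, the labels and the file headers, small RNA reads were trimmed with Trimmomatic, mRNA was aligned to rn5 with STAR 2.3.0, and uniquely aligned reads were counted with featureCounts 1.4.6. Gene counts were set to the reverse strand, although the kit named in the labels does not mark strand. Deposited miRNA and repeat counts were not used.

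Diet and replicate came from the sample titles. The 8 genes and all comparisons were chosen with earlier results of these data known. Genes averaging 1 count or more per library were tested by edgeR 4.0.16 in R 4.3.3, with TMM scaling and quasi-likelihood F tests. P-values were adjusted over all these genes by the Benjamini-Hochberg procedure (threshold 0.05), and DESeq2 1.42.0 was an alternative. The fit recovered 74% of 200 genes changed by 1 log2 unit in simulated HFD and CD libraries of 19086 genes. The changed genes were drawn from those averaging 10 counts or more, so this share does not cover Irs1 and Slc2a4. It is an average over the genes drawn and not the recovery of any single gene, such as Insr with its wide spread. With no gene changed, the fit called 1 gene. RPKM used the annotated exonic bases and the TMM-scaled total. Ratios were compared by exact two-sided permutation tests in scipy 1.17.1 after adding 0.5 counts, a value set once a 0 was seen. Counting intervals were exact at 95%. The named genes were the 8 members and, for 2 of them, the gene most correlated. No 2 libraries agreed within sampling noise (lowest chi-square per degree of freedom 9.65). The study's methods give RNA per animal, but the labels do not tie libraries to litters or days, so p-values measure the spread between these libraries.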

Additional observations from a re-analysis of the deposited data

Results flagged for a closer look

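In 4 of the 22 groups of 4 values tested, 1 library lay far from the other 3 (Dixon's 95% criterion, which chance exceeds in about 1 of 20 groups). For Igf1r on the HFD, replicate 4 had 3.81 CPM against 3.19 to 3.27 CPM. For Akt2 on the CD, replicate 1 had 79.9 CPM against 67.6 to 68.4 CPM, and 68.4 CPM when scaled by its total count. For Slc2a1 on the CD, replicate 3 had 12.04 CPM against 10.4 to 10.6 CPM. For the log2 ratio of Slc2a1 to Slc2a4 on the HFD, replicate 4 had 9.93, with 0 counts of Slc2a4. The cause of each was not tested.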

How the results depend on the processing

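None of the 8 genes was called under any alternative run. All genes called numbered 7 with DESeq2 without shrinkage, 6 with shrinkage and 0 to 1 when 1 library was left out, against 0 by edgeR. Of 132 log2 fold changes of the 8 genes under alternatives, 18 changed sign, all of Insr, Akt2, Slc2a1 and Ldha, whose values were near 0. Ldha was -0.0016 with DESeq2 size factors and with DESeq2 with or without shrinkage, and -0.0043 with upper quartile factors, which also gave Slc2a1 -9.4e-05. Insr was 0.0050 with the replicate block and 0.022 relative to Ldha. Leaving out 1 library gave -0.30 to 0.21 for Insr, -0.077 to 0.0028 for Akt2, -0.052 to 0.064 for Slc2a1, -0.0083 to 0.020 for Ldha, 0.019 to 1.04 for Irs1 (highest without CD replicate 2) and -0.92 to -0.15 for Slc2a4 (nearest 0 without HFD replicate 4). The diet difference in the ratio of Akt1 to Akt2 ran from -0.21 to 0.00078 when 1 library was left out, with the highest without HFD replicate 4, that of Insr to Igf1r from 0.13 (without CD replicate 3) to 0.67, and that of Slc2a1 to Slc2a4 from 0.17 (without HFD replicate 4) to 1.17. Igf1r stayed below 0 under every alternative, from -0.55 to -0.20, as did Akt1, from -0.25 to -0.055, and Slc2a4. Irs1 stayed above 0. The alternatives reuse the same libraries, so a constant sign is no further evidence of a difference. The CV of Ldha was 6.15% with total counts. Total-count scaling was not among the alternatives for the fold changes. With it, Ldha averaged 853 ± 18.9 CPM on the HFD and 797 ± 69.2 CPM on the CD. The Insr means were then 0.694 and 0.675 CPM and the Akt2 means 70.5 and 68.6 CPM, both higher on the HFD. The other genes kept the direction of the main fit. The labels do not say whether same-numbered HFD and CD libraries shared more than a number, such as a batch, and this was not tested. Deviations of same-numbered libraries from their diet mean correlated by -0.142 on average. The mean of 0.0472 for other pairs is no separate comparison. It nearly follows from the first value, because the deviations within a diet sum to 0. No same-numbered pair was over 0.1, and 1 of 8 libraries correlated best with its own number. The replicate block changed no call, with 322 genes at an unadjusted edgeR p under 0.05 against 725. Leaving out a library gives an exact test that cannot pass 0.05. Irs1 and Slc2a4 gave no value with a mean count of at least 10, nor did Irs1 without HFD replicate 1. Depth limits Irs1 and Slc2a4 most. For Insr the CV of 42.6% lay well above the 17.9% of counting alone, so its wide interval is not set by depth alone.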
